A study of Mus musculus with 4 samples.

Results

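Nonclassical monocytes were picked out of lung single-cell RNA-seq by their transcripts, and 411 of 30860 cells met the criteria. A cell had to carry at least 1 unique molecular identifier (UMI, one counted transcript molecule) of at least 2 of *Treml4*, *Cd300e*, *Ace*, *Spn* and *Eno3*, and at least 1 UMI of *Csf1r*, the receptor for the growth factor CSF1. It could hold at most 1 UMI of *C1qa*, a macrophage gene, and none of *Ccr2*, the chemokine receptor of classical monocytes. UMIs of *Cd3e*, *Cdh5*, *Pdgfra* and *Epcam*, which mark T cells, endothelial cells, fibroblasts and epithelial cells, had to be absent. Because the cells were chosen by these genes, the levels of the genes are a description and were not tested.

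Nonclassical, or patrolling, monocytes are blood monocytes with little Ly6C that crawl along the inner face of small vessels. They develop from classical Ly6C-high monocytes under control of the transcription factor *Nr4a1*, depend on survival signals through *Cx3cr1* and *Csf1r*, and hold to the endothelium through the integrin LFA-1, whose alpha chain is *Itgal*. In the lung they sit mostly in the capillaries and take up particles and cell debris from the vessel lumen.

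The mice were 2 WT littermates and 2 *Tubb3-/-* mice aged 8 to 11 weeks, and all 4 had received 0.8 U/kg bleomycin into the trachea 14 days earlier, so that no uninjured lung was sampled. The *Tubb3-/-* mice were homozygous for a *Tubb3-Cre* knock-in, so that both copies of *Tubb3*, the gene of β-III tubulin, were interrupted in every cell. The study asked how loss of β-III tubulin bears on lung fibrosis. From every lung came cells depleted of erythrocytes only (whole-cell library) and cells further depleted of CD45-, CD31- and EpCAM-positive ones (mural cell-enriched library). They were tagged by mouse and run as 2 pools. Live cells were sorted from the whole-cell pool. From the other pool, mural cells (MCAM-positive and PDGFRα-negative) and MCAM-negative cells were sorted and mixed in equal parts.

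The 8 libraries held 32121 cells, and 30860 of them had 200 to 7500 genes and at most 15% mitochondrial UMIs. Each library had 41462258 to 95036340 UMIs in genes. *Tubb3* stood at 1.93 and 0.868 CPM (UMIs of the gene per 1000000 UMIs) in the whole-cell libraries of WT mice and at 0.262 and 0.321 CPM in those of *Tubb3-/-* mice, which matched the labels. Replicate 1 of both genotypes carried Y-linked transcripts (280.1 and 261 CPM in the monocytes) and replicate 2 of both carried *Xist* (604 and 586 CPM). No cell barcode was shared by 2 libraries of 1 pool, and none of the 59 barcodes that occurred in both pools belonged to a nonclassical monocyte in both. Scrublet marked 1 of the 411 cells as a doublet.

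The criteria were met step by step. At least 2 of the 5 markers were present in 2035 cells, the *Csf1r* criterion left 986, the *C1qa* limit 907, the *Ccr2* criterion 665 and the last criterion 411. The whole-cell libraries gave 78 and 133 of these cells for WT and 78 and 111 for *Tubb3-/-* mice. The mural cell-enriched libraries, from which CD45-positive cells had been removed, still gave 1, 2, 3 and 5 in the same order.

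The label was checked against markers that the criteria did not use, and it did not hold for every cell. Of the 411 cells, 98 (23.8%) carried UMIs of at least 2 of 6 alveolar macrophage markers (*Siglecf*, *Marco*, *Ear1*, *Fabp1*, *Krt79* and *Car4*). There were 23 and 36 such cells in WT and 20 and 19 in *Tubb3-/-* mice. They had a median of 27370.5 UMIs against 6308 in the other 313 cells and held 51.8% of all UMIs of the 411. The monocyte gene *Adgre4* had 7.86 CPM in them and *Chil3*, which alveolar macrophages also express, 10943 CPM. Of these 98 cells, 84 had only the minimum of 2 nonclassical markers, so the name monocyte did not hold for them by their leading genes.

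The 11 cells from the mural cell-enriched libraries stood apart as well. In 8 of the 11, *Ptprc*, which encodes CD45, had no UMI. The 8 cells of *Tubb3-/-* mice held 55 to 756 UMIs each of *Acta2*, the smooth muscle actin, against 4 to 10 in the 3 cells of WT mice. The cells of these libraries made up 6.44% and 11.1% of the summed UMIs of the *Tubb3-/-* mice, against 0.966% and 0.800% in WT mice.

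Results below are therefore given for all 411 cells and, where levels are described, for the 303 whole-cell library cells with at most 1 alveolar macrophage marker, called core cells. This limit was set after the data had been seen. The core cells numbered 55 (WT 1), 97 (WT 2), 58 (*Tubb3-/-* 1) and 93 (*Tubb3-/-* 2), and they held 410592, 727405, 509018 and 643180 UMIs in this order. Their median UMI number was between 5957 and 6982 per mouse.

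**Figure D1:**
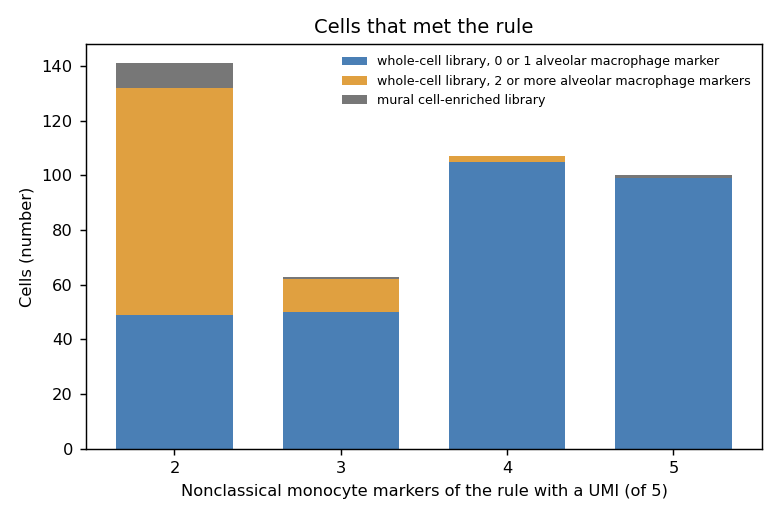
Number of cells (vertical axis) by how many of the 5 nonclassical markers had a UMI (horizontal axis), stacked by origin and alveolar macrophage markers. Of the 141 cells with exactly 2 markers, 83 were whole-cell library cells with alveolar macrophage markers and 9 came from the mural cell-enriched libraries, whereas 99 of the 100 cells with all 5 markers were core cells.

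Among the core cells, *Ace*, which encodes angiotensin-converting enzyme, had a UMI in 95%, *Spn* (CD43) in 83.2%, *Treml4* in 82.2%, *Cd300e* in 67.3% and *Eno3* in 56.1%. All 5 were present in 99 cells, 4 in 105, 3 in 50 and only 2 in 49. Most of the listed markers outside the criteria were as frequent. *Nr4a1* had a UMI in 99.0% of the core cells, *Gngt2*, a G protein gamma subunit, in 98.7%, *Itgal* in 97.4%, *Pou2f2*, a transcription factor, in 92.7% and *Adgre4*, an adhesion receptor, in 92.1%. *Cx3cr1* had a UMI in only 63.7%, against 61.0% of the classical monocytes described below. Other, deeper cells with 4 or more alveolar macrophage markers (777 cells, median 25407 UMIs) shared some of these markers. They had *Nr4a1* in 94.6%, *Gngt2* in 98.8% and *Itgal* in 97.7%, but *Pou2f2* in 9.14% and *Adgre4* in 9.01%.

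Free RNA in the droplets was gauged on 802 T cells, which should not express the myeloid genes and had a median of 6891 UMIs against 6263 in the core cells. *Adgre4* had a UMI in 0.998% and *Treml4* in 1.12% of the T cells, and the Fc receptor *Fcgr4* in 3.37% against 80.2% of the core cells. *Chil3* was different, with a UMI in 61.6% of the T cells against 74.9% of the core cells, so that its presence in single core cells was close to the background. *Ly6c2*, the classical monocyte antigen that some T cells also express, had a UMI in 13.2% of the core cells and 14.2% of the T cells. It was rarer in the deeper *C1qa*-high macrophages (3.37% of 415 cells, median 14001 UMIs), with 3.93 CPM against 85.1 CPM over all core cells. *Itgal* and *Nr4a1* are also expressed by T cells, with shares of 56.4% and 66.3%.

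Cells just inside and just outside the criteria differed stepwise. The 49 core cells with exactly 2 markers had 214 CPM of *Adgre4* and 251 CPM of *Ly6c2*, against 974 and 21.1 CPM in the 99 with all 5. The 310 cells that failed only by having 1 marker had 9.50 CPM of *Adgre4*, and 53.9% of them carried at least 2 alveolar macrophage markers. The 56 cells that failed only by a single *Ccr2* UMI had 133 CPM of *Adgre4* and 249 CPM of *Ly6c2*. The 190 without *Csf1r* had 17 CPM of *Adgre4*, and the 254 with a UMI of a T cell, endothelial, fibroblast or epithelial gene had 75.5 CPM.

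Markers of other cells were counted in the core cells. At least 3 of 6 neutrophil markers were found in 16 cells, and the summed level of the 6 was 1113 and 1672 CPM in WT and 554 and 3787 CPM in *Tubb3-/-* mice. A single cell held 57.0% of all core UMIs of *S100a8*. The mural markers summed to 92.5, 90.7 and 70.7 CPM in the first 3 mice but to 796 CPM in *Tubb3-/-* 2, where 1 cell had at least 3 of them. At least 3 fibroblast markers were found in 15.8% and at least 3 epithelial markers in 30.7% of the core cells, close to the 17.7% and 31.3% of T cells. *Cd163*, *Higd1b*, *Cd3e*, *Cdh5*, *Pdgfra* and *Epcam* had no UMI in any of the 411 cells, the last 4 by the criteria.

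The core cells were set beside 118 classical monocytes of the same whole-cell libraries. These had at least 2 UMIs of *Ly6c2*, at least 1 of *Ccr2* and fewer than 2 nonclassical markers, and otherwise met the same marker criteria. The limit on alveolar macrophage markers that defines the core cells was not applied to the classical monocytes, here or in the tests against them below. Both kinds were chosen by their genes, so the differences between them are described over the 4 mice and were not tested. Of 3691 genes whose mean reached 50 CPM in either kind, 1058 (28.7%) were higher in the core cells in all 4 mice and 744 (20.2%) were lower in all 4. Of the 24 genes listed as the nonclassical programme, 21 were higher in all 4 mice and none was lower in all 4. Of the 19 listed as the classical programme, 15 were lower in all 4 mice and 1, *Irf1*, was higher. Of these 15, *Ly6c2* was used to choose the cells, so its direction was given. The 24 nonclassical genes hold none of the criteria.

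Among the identity genes, *Adgre4* had 772 and 872 CPM in WT and 527 and 805 CPM in *Tubb3-/-* mice, and 48.6 to 70.5 CPM in the classical monocytes, a mean ratio of 12.3. *Gngt2* had 1164 and 1380.2 CPM in WT and 1108 and 1203 CPM in *Tubb3-/-* mice, 5.35 times its mean in classical monocytes. *Dusp16*, a phosphatase of MAP kinases, had 1206 and 1529 CPM in WT and 994 and 1406 CPM in *Tubb3-/-* mice, a ratio of 10.1. In each of the 3 genes the lowest of the 4 values was that of *Tubb3-/-* 1, and all 4 lay above every value of the classical monocytes.

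*Ly6c2* was used to choose the classical cells and stood at 66.8 to 98.0 CPM in the core cells. *F13a1*, the factor XIII A chain, which the criteria did not use, had 14.0 to 29.5 CPM in the core cells against 667 to 939.9 CPM in classical monocytes, a level 36.9 times lower. *Thbs1*, *Fn1* and *Cd14*, which encode thrombospondin 1, fibronectin and the lipopolysaccharide co-receptor, were 4.99, 3.46 and 4.0 times lower by their means. For each of these 4 genes the ranges of the 2 kinds of monocyte did not overlap.

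**Figure D2:**
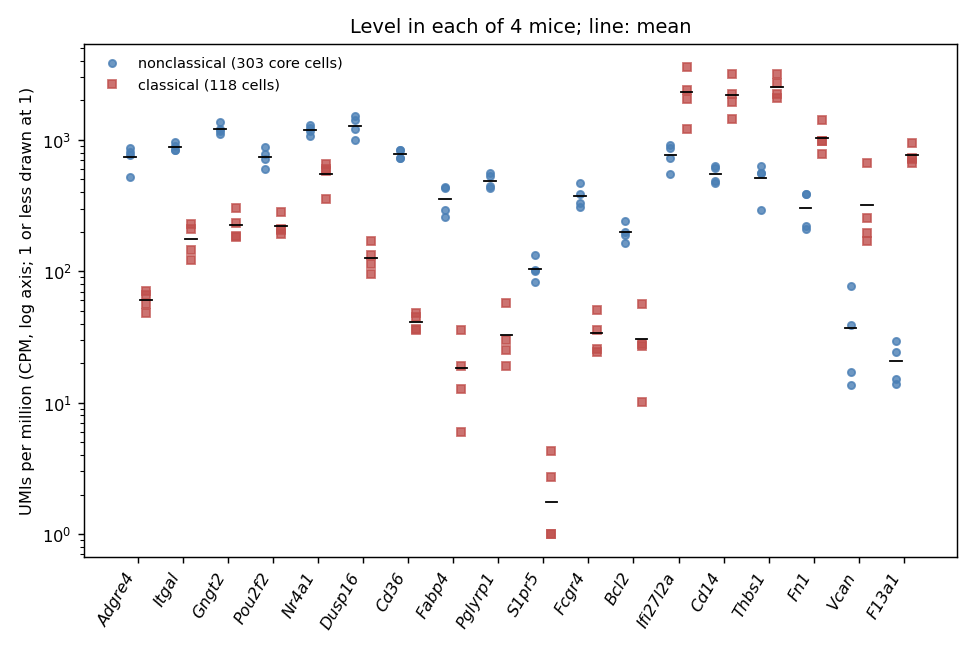
Level in CPM (logarithmic vertical axis, values of 1 or less drawn at 1) of 18 genes in the 303 core cells (circles) and the 118 classical monocytes (squares), 1 point for each of 4 mice, with a line at the mean. The circles of *Adgre4* to *Bcl2* lie above the squares and those of *Ifi27l2a* to *F13a1* below them, without overlap within a gene.

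The transcription factors of monocyte fate divided, with 12 of 28 higher in the core cells in all 4 mice and 8 lower in all 4. *Nr4a1* had 1228 and 1295 CPM in WT and 1077 and 1172 CPM in *Tubb3-/-* mice against 356 to 656 CPM in classical monocytes, and no mouse fell out of this order. *Pou2f2* was 3.36 times higher and *Tcf7l2*, a Wnt pathway factor, 4.31 times higher by their means. *Cebpb*, which nonclassical monocytes need for survival, differed little, with means of 2975 CPM in the core cells and 3009.7 CPM in classical monocytes. *Maf* and *Bach1* were among the 8 lower ones, with means of 30.4 and 186 CPM against 109 and 262 CPM.

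Of 22 genes of adhesion, patrolling and egress, 10 were higher in the core cells in all 4 mice and 3 were lower. *Itgal* had 845 and 969 CPM in WT and 833 and 891 CPM in *Tubb3-/-* mice, against 122 to 229 CPM in classical monocytes. *Itgb2*, its partner chain in LFA-1, was 1.78 times higher and *Itga4*, the alpha chain of the VCAM-1 receptor, 2.05 times higher. *S1pr5*, the sphingosine phosphate receptor that lets these monocytes leave the bone marrow, had 82.5 to 132 CPM in the core cells and 0 to 4.27 CPM in classical monocytes. The chemokine receptor *Ccr1* and the integrin chain *Itgb7* were among the 3 lower ones. *Cx3cr1*, the fractalkine receptor, had 217 and 227 CPM in WT and 149 and 149 CPM in *Tubb3-/-* mice and was higher than in classical monocytes in every mouse, by a mean ratio of only 1.56.

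Among 16 genes of survival and apoptosis, 8 were higher in all 4 mice, one of them the criterion gene *Csf1r*, and 2 were lower. *Bcl2*, an inhibitor of apoptosis, had 163 to 243 CPM against 10.2 to 56.5 CPM. *Bcl2l11* (BIM), which opposes it, was one of the lower ones with 79.3 to 119 CPM against 178 to 286 CPM, and *Mcl1*, another inhibitor, was the other. *Bcl2a1a*, *Bcl2a1b* and *Bcl2a1d* were all higher in every mouse, but these copies are nearly identical and their counts are uncertain. *Csf1r* had 576 CPM in the core cells and 408 in the classical monocytes.

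Of 19 Fc receptor and uptake genes, 8 were higher and 6 lower in all 4 mice. *Fcgr4*, the activating IgG receptor of nonclassical monocytes, had 334 and 389 CPM in WT and 310.4 and 471 CPM in *Tubb3-/-* mice against 24.3 to 50.8 CPM. *Msr1*, *Fcgr2b* and *Cd93*, a scavenger receptor, the inhibitory IgG receptor and a lectin-like receptor, went the other way, with means of 52.9, 93.7 and 42.2 CPM against 137, 164 and 180.1 CPM in classical monocytes.

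The lipid genes contained some of the widest gaps, and 9 of 20 were higher in all 4 mice and 2 were lower. *Cd36*, a scavenger receptor and fatty acid carrier, had 845 and 843 CPM in WT and 729 and 729 CPM in *Tubb3-/-* mice, a mean ratio of 19.1 to classical monocytes. *Fabp4*, a fatty acid binding protein, had 261 to 436 CPM against 5.95 to 35.6 CPM. *Pparg*, the nuclear receptor that controls both, had 589 and 439.9 CPM in WT and 401 and 469.5 CPM in *Tubb3-/-* mice, against 17.1 to 45.7 CPM. These 3 genes thus separated the 2 kinds of monocyte in every mouse. The cholesterol exporter *Abcg1* was also higher, whereas *Npc2*, a lysosomal cholesterol carrier, was lower, with 496 against 1369 CPM.

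Over all 411 cells the genes most above classical monocytes included *Krt79*, *Egfem1*, *Kcnip4* and *Pdpn*, which lay mainly in the cells with alveolar macrophage markers, so the ranking is given for the core cells. By the ratio of the means, the genes most above classical monocytes were *Dnah12*, *S1pr5*, *Tmem26*, *Tgfbr3*, *Fabp4*, *Cd36*, *Slc12a2*, *Bcl2a1a*, *Pglyrp1*, *Pparg*, *Rarres2* and *Hes1*, with *Rarres2* resting on few cells (84.2% of its UMIs in 5 cells). *Dnah12*, an axonemal dynein heavy chain, had 107 to 176 CPM against 0 to 4.27 CPM and was found in 42.2% of the core cells and 1.62% of T cells. *Tgfbr3*, the betaglycan co-receptor of TGF-β, had 92.5 to 209.9 CPM against 0 to 12.8 CPM. *Vegfc*, a growth factor of lymphatic vessels, had 27.5 to 93.3 CPM and no UMI in any classical monocyte. *Il12b* had 577 CPM in WT 1 alone, and all of its UMIs were in 1 cell.

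The interferon response genes lay on the other side. Of 34 measured, 20 were lower in the core cells in all 4 mice and none was higher in all 4. *Ifi27l2a* had 728 and 922 CPM in WT and 548 and 871 CPM in *Tubb3-/-* mice against 1214 to 3567 CPM in classical monocytes. *Bst2* (tetherin) was 4.90 times lower and *Irf7*, the factor that amplifies the interferon response, 3.18 times lower. *Cxcl10* had a UMI in 3.96% of the core cells, below the 9.60% of T cells, and *Cxcl9* had none in 303 cells, which allows up to 0.990% of cells with a UMI and sets no limit on cells that express it.

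Toll-like receptor and cytokine genes were more often lower (10 of 28) than higher (4 of 28) in all 4 mice. *Ccl2*, the ligand of CCR2, had 5.50 to 21.8 CPM against 81.3 to 259 CPM. *Nfkbia* and *Nfkbiz*, genes of the NF-κB pathway, were higher, by 1.65 and 2.56 times. *Il1b*, which encodes interleukin-1β, had 620.4 to 1239.7 CPM and 550.4 to 1617 CPM in the classical monocytes, with overlapping ranges.

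The counts of antigen presentation genes lay near the 28.7% higher and 20.2% lower of the 3691 genes, except that no class II gene was higher. Those 3691 genes had a mean of at least 50 CPM in either kind, a limit that was not applied to the lists. Of 15 MHC class I genes, 5 were higher in all 4 mice and 3 lower, and *H2-K1*, a classical class I heavy chain, had 1375 to 1915 CPM against 869 to 1196 CPM. Of 14 class II genes, none was higher and 4 were lower in all 4 mice. *H2-Ab1*, a class II beta chain, had 697 and 198 CPM in WT and 689.6 and 146 CPM in *Tubb3-/-* mice, so that replicate 1 exceeded replicate 2 in both genotypes. Single cells held 221 and 230 of its UMIs in WT 1 and *Tubb3-/-* 1, and 42.4% of T cells carried a UMI of it, against 47.5% of the core cells.

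The remaining lists were mixed. Of 20 complement and coagulation genes 2 were higher and 7 lower, of 23 scar macrophage genes 6 and 3, of 25 immediate-early genes 5 and 5, and of 21 glycolysis and hypoxia genes 3, with the criterion gene *Eno3* among them, and 7. Of 20 cell cycle genes 4 were higher and 2 lower, and *Mki67*, the proliferation marker, had a UMI in 2.64% of the core cells. Of 14 tubulin genes 3 were higher and 1 lower. *Tubb3* itself had 4.87 and 1.37 CPM in WT and 0 and 0 CPM in *Tubb3-/-* mice in the core cells, which is at most 2 UMIs in a mouse. *Arg1*, a gene of alternatively activated macrophages, had a UMI in 0.660% of the core cells.

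The share of nonclassical monocytes was compared between the genotypes in the whole-cell libraries. Nonclassical monocytes made up 2.29% (exact Clopper-Pearson 95% interval 1.81 to 2.85) and 4.26% (3.58 to 5.03) of all cells in WT mice. In *Tubb3-/-* mice they made up 1.87% (1.48 to 2.32) and 3.21% (2.65 to 3.86). The intervals cover counting error only. In both genotypes replicate 2, with *Xist*, lay above replicate 1, with Y-linked transcripts, and the ranges of the genotypes overlapped. The WT mean was 3.28% ± 1.40 (SD, n = 2) and the *Tubb3-/-* mean 2.54% ± 0.951 (SD, n = 2), and the difference of -0.738 percentage points had an exact two-sided permutation p = 0.667, where 2 against 2 mice cannot give less than 0.333. The difference was smaller than the SD of either group. Within the pair with Y-linked transcripts the share was 2.29% in WT and 1.87% in *Tubb3-/-*, and within the pair with *Xist* 4.26% and 3.21%, so that it was lower in *Tubb3-/-* in both. Without WT 2, which unbalances the pairs, the difference was 0.249 percentage points.

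Among cells with a UMI of *Ptprc*, the share was 3.48% and 7.09% in WT and 3.19% and 5.49% in *Tubb3-/-* mice, with means of 5.28% ± 2.55 (SD, n = 2) and 4.34% ± 1.63 (SD, n = 2) and again an exact permutation p = 0.667. Of all monocytes by these criteria, nonclassical ones made up 69.0% and 82.1% in WT and 83.9% and 74.0% in *Tubb3-/-* mice. Here replicate 2 was the higher one in WT but the lower one in *Tubb3-/-* mice, and the means of 75.6% ± 9.24 (SD, n = 2) and 78.9% ± 6.98 (SD, n = 2) differed with an exact permutation p = 0.667. Without WT 2 or without *Tubb3-/-* 1 the difference among *Ptprc*-positive cells turned to 0.866 and 0.209 percentage points, and without WT 1 or without *Tubb3-/-* 1 that among monocytes turned to -3.16 and -1.56. Within both pairs the share of *Ptprc*-positive cells was lower in *Tubb3-/-*, and the share of monocytes was higher in *Tubb3-/-* in replicate 1 and lower in replicate 2. With cells thinned to 3000 UMIs, of which 161 to 237 a mouse were too shallow and left out, the shares of all cells were 1.64% and 3.18% in WT and 1.24% and 2.33% in *Tubb3-/-* mice. Of thinned monocytes, 81.25% and 79.7% were nonclassical in WT and 86.0% and 75.2% in *Tubb3-/-* mice, so that the order of the WT mice turned and the difference of the means was 0.151 in place of 3.37 percentage points. Without cells that carried alveolar macrophage markers they were 1.78% and 3.64% in WT and 1.53% and 2.98% in *Tubb3-/-* mice, and the difference in the share of monocytes was 6.66 percentage points.

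**Figure D3:**
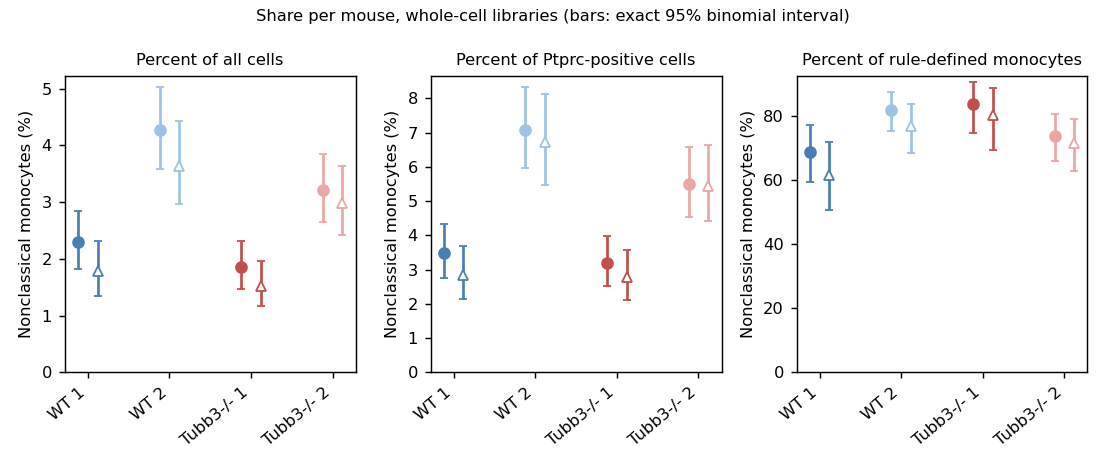
Percentage of nonclassical monocytes in each mouse (vertical axes from 0) among all cells, *Ptprc*-positive cells and monocytes of the whole-cell libraries. Filled circles are all cells that met the criteria, open triangles the values without cells that carried 2 or more alveolar macrophage markers, and bars exact 95% binomial intervals; in the first 2 panels replicate 2 lies above replicate 1 in both genotypes.

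Expression was compared between the genotypes on UMIs summed per mouse over all 411 cells. Of 8833 genes tested, 213 (2.41%) had an adjusted p under 0.05 in the quasi-likelihood test of edgeR with Benjamini-Hochberg adjustment, 192 of them higher (2.17%) and 21 lower (0.238%) in *Tubb3-/-* mice. An unadjusted p under 0.05 was found for 8.82% of the genes, and the 2 values of one genotype lay beyond both of the other in 37.2%. Without WT 1 or without *Tubb3-/-* 1 the number called was 335 and 516. The number also depended on which cells were summed. In the 400 cells of the whole-cell libraries, 5 of 8402 genes (0.0595%) were called, 1 higher (0.0119%) and 4 lower (0.0476%), with 4.7% at an unadjusted p under 0.05 and 32.5% without overlap. In the 303 core cells, 0 of 6455 genes (0%) were called by edgeR, while 314 (4.86%) had an unadjusted p under 0.05 and 33.5% did not overlap. DESeq2 called 3 genes in the core cells, *Mertk*, *Atp6v0d2* and *Gpnmb*, and edgeR called 91 and 71 without WT 1 and WT 2 and 140 and 173 without *Tubb3-/-* 1 and *Tubb3-/-* 2. With the replicate number as a block, which here also separates the mice with Y-linked transcripts from those with *Xist*, edgeR called 22 genes in the core cells.

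The genes called higher in the 411 cells with the largest differences were *Actg2*, *Postn*, *Myh11*, *Cnn1*, *Tagln*, *Cacna1c*, *Des*, *Mylk*, *Acta2*, *Myl9*, *Tpm2* and *Cacnb2*, which apart from *Postn*, an extracellular matrix gene, belong to the contractile apparatus, cytoskeleton and calcium channels of smooth muscle. *Myh11* (ENSMUSG00000018830, chr16:14194535-14291372, minus strand), the smooth muscle myosin heavy chain, had 5.97 and 9.40 CPM in WT and 271 and 290.1 CPM in *Tubb3-/-* mice, with a log2 fold change of 5.13 ± 0.240 (SE) and an edgeR adjusted p of 2.42e-06. *Acta2* (ENSMUSG00000035783, chr19:34241090-34255590, minus strand) had 57.7 and 55.2 CPM in WT and 980.2 and 1002 CPM in *Tubb3-/-* mice, with a log2 fold change of 4.16 ± 0.182 (SE) and an edgeR adjusted p of 2.42e-06. Both *Tubb3-/-* mice were far above both WT mice.

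These UMIs came mostly from the 8 mural cell-enriched library cells of the *Tubb3-/-* mice. They held 2091 of 2430 *Acta2* UMIs (86.0%) and 473 of 689 *Myh11* UMIs (68.7%) of these mice, against 20 of 152 (13.2%) and 1 of 22 (4.55%) in the 3 cells of WT mice. Without the 11 cells, *Acta2* had 48.2 and 49.7 CPM in WT and 43.0 and 252 CPM in *Tubb3-/-* mice. In *Tubb3-/-* 2, 240 of these UMIs lay in 1 core cell. Neither gene was called (edgeR adjusted p = 0.993 for *Acta2* and 0.639 for *Myh11*). Of the 213 genes, 91 could also be tested on the whole-cell libraries, with 5 called, and 61 on the core cells, with none called.

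The genes called lower were led by *Krt79*, *Fabp1*, *Ear1*, *Krt19*, *Cidec*, *Patj*, *Marco*, *Bckdhb*, *Ccr1*, *Plscr1*, *Cd164* and *Slc7a11*. *Krt79*, *Fabp1*, *Ear1* and *Marco* are among the 6 alveolar macrophage markers, so that their counts in core cells were limited by the choice of those cells. *Krt79* (ENSMUSG00000061397, chr15:101929332-101940324, minus strand), a keratin, had 112 and 164 CPM in WT and 11.4 and 23.7 CPM in *Tubb3-/-* mice, with a log2 fold change of -2.95 ± 0.309 (SE) and an edgeR adjusted p of 5.38e-04. *Ccr1* had 127 and 114 CPM in WT and 66.5 and 52.1 CPM in *Tubb3-/-* mice (log2 fold change -1.0). Cells with at least 2 of these markers made up 58.2% and 56.5% of the UMIs in WT and 49.1% and 43.1% in *Tubb3-/-* mice, and the part of this difference in the calls was not tested.

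The whole-cell libraries gave 4 genes, *Krt79*, *Krt19*, *Ear1* and *Fabp1*, as lower and *Spp1*, which encodes osteopontin, as the only one higher. *Spp1* had 1461 and 1323 CPM in WT and 2478 and 3034 CPM in *Tubb3-/-* mice there, with a log2 fold change of 1.02 ± 0.140 (SE) and an edgeR adjusted p of 0.0398. The core cells had 414 and 206 CPM in WT and 326 and 255 CPM in *Tubb3-/-* mice, where the groups overlapped, with a log2 fold change of -0.06. The share of cells with a UMI of *Spp1* was 59.7% in the core cells and 54.7% in T cells.

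**Figure D4:**
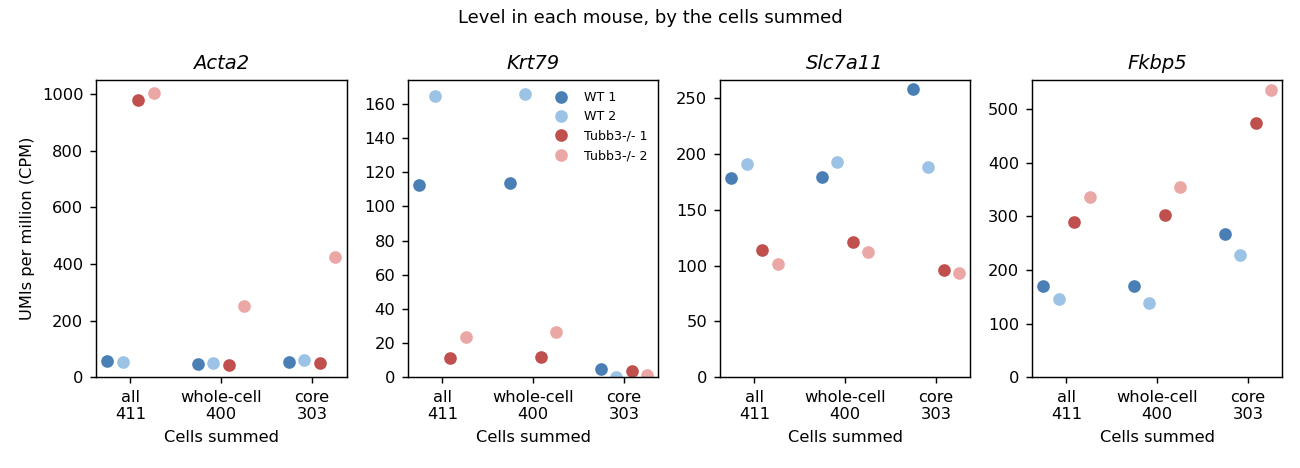
Level in CPM (vertical axes from 0) of *Acta2*, *Krt79*, *Slc7a11* and *Fkbp5* in each mouse when summed over all 411 cells, the 400 of the whole-cell libraries or the 303 core cells. *Acta2* was near 1000 CPM in both *Tubb3-/-* mice only over all cells, *Krt79* was close to 0 in the core cells of every mouse, and *Fkbp5* and *Slc7a11* kept the genotypes apart in all 3 sums. Separation in the core cells was a condition for naming these last genes there.

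*Fkbp5* had higher values in *Tubb3-/-* mice under every set of cells, and was called only under some. This gene (ENSMUSG00000024222, chr17:28399094-28517527, minus strand) encodes a co-chaperone of the glucocorticoid receptor and is itself induced by glucocorticoids. The core cells had 268 and 228 CPM in WT and 473 and 535 CPM in *Tubb3-/-* mice. The genotypes did not overlap, which was a condition for naming a gene from the core cells. The log2 fold change was 1.04 ± 0.195 (SE), with an edgeR adjusted p of 0.283, and was not called. Over all 411 cells it was 1.0 ± 0.177 (SE) and called, with an edgeR adjusted p of 0.0127, and over the 270 cells with at least 3 nonclassical markers it was 1.31, with an edgeR adjusted p of 0.0399. In that set 5 genes were called, with *Lepr*, *Mmp19*, *Chil3* and *Slc7a11* as the lower ones. *Lepr*, the leptin receptor, had the opposite sign in the core cells, with 2.44 and 38.5 CPM in WT and 60.9 and 93.3 CPM in *Tubb3-/-* mice. The change of *Fkbp5* was positive in 23 of 23 fits, which reuse the same mice and overlapping cells and are not independent.

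The difference in *Fkbp5* was spread over many cells. It had a UMI in 61.8% and 68.0% of the core cells in WT and in 87.9% and 83.9% in *Tubb3-/-* mice, and the 5 highest cells held only 8.48% of its UMIs. Other cells of the same mice showed the same order. Classical monocytes had 135 and 161 CPM in WT and 391 and 293 CPM in *Tubb3-/-* mice, and T cells had 107 and 58.6 CPM in WT and 154 and 137 CPM in *Tubb3-/-* mice. In these cells too the genotypes did not overlap. The difference of the genotype effect between core cells and classical monocytes was -0.07 on the log2 scale, with an edgeR adjusted p of 1.0.

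*Slc7a11* had lower values in *Tubb3-/-* mice under every set of cells and was likewise called only under some. This gene (ENSMUSG00000027737, chr3:49892526-50443614, minus strand) encodes the cystine transporter xCT, which supplies cystine for glutathione. In the core cells it had 258 and 188 CPM in WT and 96.3 and 93.3 CPM in *Tubb3-/-* mice, and this lack of overlap was likewise a condition for naming it. The log2 fold change was -1.21 ± 0.247 (SE), with an edgeR adjusted p of 0.290, and was not called. Over all 411 cells the log2 fold change was -0.76 and called, with an edgeR adjusted p of 0.0486. It was negative in 23 of 23 fits, which again share mice and cells and are not independent. In the core cells, 5 cells held 38.6% of its UMIs.

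Since edgeR without the block called none in the core cells, the 6 higher and 6 lower genes with the smallest unadjusted p are given as values. With the block, *Fkbp5* (edgeR adjusted p = 0.0407), *Slc7a11* (0.0493), *Chil3* (0.0255), *Gpnmb*, *Mertk*, *Atp6v0d2* and *St7* were called, in the same direction. *Chil3*, a chitinase-like protein, had 487 and 929 CPM in WT and 3183 and 1968 CPM in *Tubb3-/-* mice there (log2 fold change 1.87, edgeR adjusted p = 0.205), but 5 of the 303 cells held 56.2% of its UMIs. Its level was 5761 CPM in the 49 core cells with exactly 2 nonclassical markers and 297 CPM in the 105 with 4. In the cells with at least 3 markers, which include some with alveolar macrophage markers, *Chil3* went the other way, with 2992 and 3368 CPM in WT and 1617 and 1317 CPM in *Tubb3-/-* mice. *Gpnmb*, *Mertk* and *Atp6v0d2*, genes of phagocytic macrophages, had log2 fold changes of 3.03, 2.61 and 2.20, and 5 cells held 80.4%, 73.1% and 69.6% of their UMIs. *St7* was the other higher gene beside *Fkbp5*, with 31.7 and 22 CPM in WT mice against 100.2 and 85.5 CPM.

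On the lower side, *Il1b* had 1239.7 and 1069.6 CPM in WT and 786 and 620.4 CPM in *Tubb3-/-* mice and was not called (log2 fold change -0.70, edgeR adjusted p = 0.621). *Cst3*, which encodes cystatin C and was found in all core cells, had 5646 and 4959 CPM in WT and 3591 and 3579 CPM in *Tubb3-/-* mice (edgeR adjusted p = 0.501). No overlap of the groups was a condition for naming both genes, and it held for 33.5% of all genes tested. *Vps37b*, *Spred2* and *Gmeb2*, which encode an endosomal sorting subunit, an inhibitor of the Ras and ERK pathway and a factor that modulates the glucocorticoid receptor, had log2 fold changes of -1.07, -1.24 and -1.07, and 5 cells held 14.7%, 20.7% and 12.9% of their UMIs.

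**Figure D5:**
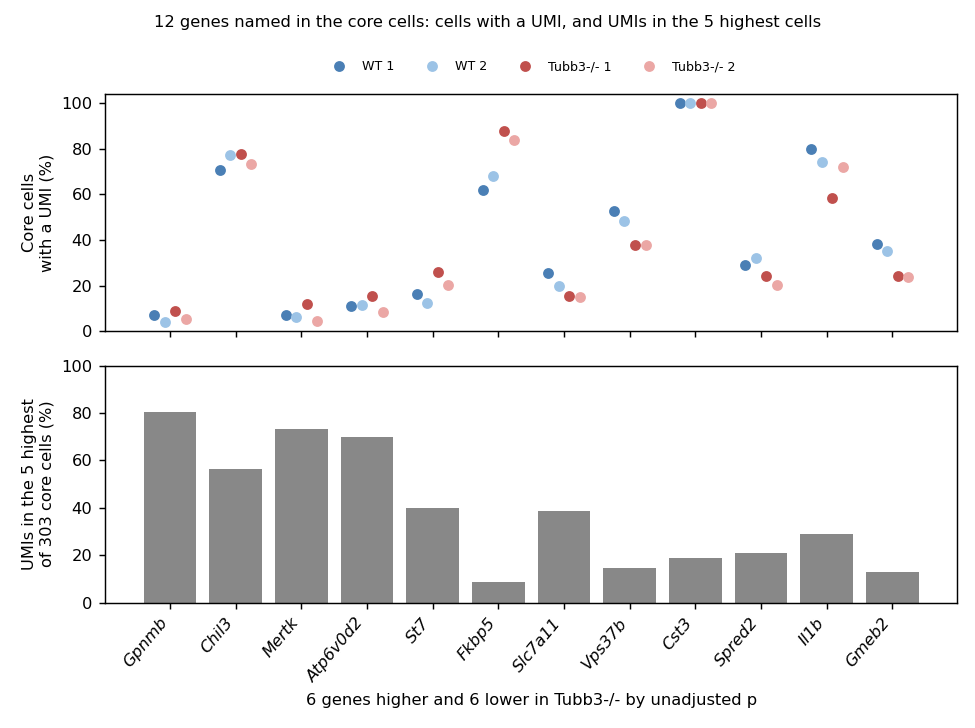
For the 12 genes given from the core cells, the upper panel shows the percentage of core cells with a UMI in each mouse and the lower panel the percentage of all core UMIs that lay in the 5 highest of 303 cells. *Gpnmb* and *Mertk* were found in few cells and had over 70% of their UMIs in 5 cells, whereas *Fkbp5* was found in more than 60% of the cells of each mouse and had 8.48% in 5 cells.

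In the main edgeR fit, without the block, the gene lists showed no called gene between the genotypes in the core cells. DESeq2 called *Mertk* of the uptake list and *Gpnmb* of the scar macrophage list there. With the replicate block, edgeR called both as well, beside other scar macrophage genes given below. The median log2 fold change over all 6455 genes was 0.02 in the edgeR fit of the core cells. The nonclassical programme had a median of -0.14 over 24 genes, of which 20 were below 0, and *Cx3cr1* was the member that had an unadjusted p under 0.05. *Cx3cr1* had 217 and 227 CPM in WT and 149 and 149 CPM in *Tubb3-/-* mice, with both *Tubb3-/-* mice below both WT mice and an edgeR adjusted p of 0.968. The core cells at the limit of 2 markers made up 16.4% and 10.3% of the core cells in WT and 22.4% and 18.3% in *Tubb3-/-* mice, and those with all 5 made up 30.9% and 42.3% against 20.7% and 31.2%. The part of this in the medians was not tested. The adhesion and egress list had a median of -0.19 with 18 of 19 genes below 0, and survival and apoptosis one of -0.25 with 12 of 15 below 0. In the whole-cell libraries the medians of these 3 lists were 0.07, 0.04 and -0.04, beside 0.01 over all genes, so that 2 of the 3 changed sign with the cells summed.

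The scar macrophage list stood at 0.47 over 18 genes, and 9 of them had an unadjusted p under 0.05. In the fit with the replicate block, edgeR called *Gpnmb*, *Chil3*, *Ctsk*, *Ctsd*, *Fabp5* and *Cd63* of this list higher in the core cells. The edgeR adjusted p was 0.00178 for *Ctsk* and for *Ctsd*. Several genes of the list lay in few cells. *Ctsk*, *Fabp5* and *Ctsd* had 75.5%, 65.2% and 57.5% of their core UMIs in 5 cells, and their shares of cells with a UMI (12.2%, 25.7% and 68.6%) were close to those in T cells (10.2%, 26.9% and 69.7%). Over all 411 cells the median of this list was 0.07, and *Spp1*, *Mmp14* and *Pdgfa* were called higher there. Without the cells of the mural cell-enriched libraries only *Spp1* of these was called, and in the core cells none was in the main edgeR fit.

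Of the other lists, medians in the core cells were 0.06 for the classical programme (18 genes tested), -0.05 for transcription factors (26) and 0.02 for Fc receptors and uptake (18). They were 0.01 for Toll-like receptors and cytokines (24), 0.01 for the interferon response (19), 0.03 for MHC class II (10) and -0.08 for MHC class I (15). They were -0.08 for complement and coagulation (11), -0.01 for immediate-early genes (24), 0.05 for lipid handling (20) and 0.08 for glycolysis and hypoxia (17). The cell cycle list, with 0.48 over 7 genes, and the tubulins, with -0.31 over 8, had few members, and all UMIs of *Pclaf*, a replication gene, were in 1 cell of *Tubb3-/-* 1. Over all 411 cells, *Fos* was called higher (log2 fold change 0.70, edgeR adjusted p = 0.0384) and *Ccr1* lower. No further list gene was called there beside the 3 scar macrophage genes. Neither *Fos* nor *Ccr1* was called in the cells of the whole-cell libraries alone.

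Whether the genotype effect differed from that in classical monocytes was tested with a cell type by genotype term in edgeR. The effect differed for 54 of 8171 genes (0.661%) over all 411 cells, for 33 of 8036 (0.411%) over the whole-cell libraries and for 9 of 6391 (0.141%) in the core cells. Over all 411 cells the number was 99 without *Tubb3-/-* 1 and 157 without *Tubb3-/-* 2. In the core cells *Ear2*, an eosinophil-type ribonuclease, had 389.7 and 546 CPM in WT and 381 and 446 CPM in *Tubb3-/-* mice. Classical monocytes had 16.2 and 8.92 CPM of it in WT and 147 and 81.2 CPM in *Tubb3-/-* mice. The values of the core cells overlapped between the genotypes, and those of the classical monocytes did not. *Ear2* was not particular to these monocytes, with 1254 CPM in other cells with 4 or more alveolar macrophage markers. T cells, which gauge free RNA, had 61.7 CPM of it, beside 55.4 CPM over all classical monocytes. *Ear2* shares sequence with *Ear1*, so its counts are uncertain.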

How the data were processed

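Lungs of 2 WT and 2 *Tubb3-/-* mice, all given bleomycin, were profiled by 10x single-cell RNA-seq with CellPlex tags, in a whole-cell pool and a mural cell-enriched pool. The authors aligned reads to mm10 with Cell Ranger, of which the submitters' processing notes name version 7.1.0, and deposited UMI counts per gene and cell. The strand setting is not given in the sources used here. From these counts, cells with 200 to 7500 genes and at most 15% mitochondrial UMIs were kept, and the marker criteria were applied. Doublets were scored with Scrublet in scanpy 1.11.5 and left in, since removal was an alternative.

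UMIs were summed per mouse, because cells are not replicates, and tested with edgeR 4.0.16 (quasi-likelihood test, TMM, filterByExpr, Benjamini-Hochberg adjusted p under 0.05) in R 4.3.3. The difference from classical monocytes was tested with an interaction term and the mouse as a block. Shares were tested with exact permutation over mice in SciPy 1.17.1, with exact Clopper-Pearson intervals that cover counting error only. Each mouse had 1005572 to 1702627 UMIs in these cells. CPM were computed from the summed UMIs. Scripts were tested on simulated data. Alternatives were DESeq2 1.42.0, RLE size factors, no filter, leaving out each mouse, a replicate block, other cell limits and thinning to 3000 UMIs.

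The members, the 17 gene lists and the tests were chosen with earlier results of these data known. The limit that defines the core cells was set after seeing the data. Genes named between genotypes had a mean of at least 50 CPM and no overlap between the genotypes. They were up to 12 called in each direction with the largest change. Where fewer than 12 were called, the 6 of them with the smallest p in each direction were taken. Against classical monocytes the 12 highest and 12 lowest ratios were taken. Other genes of the lists and of the cell checks were named after their values were seen. Coordinates are from GENCODE vM21 (GRCm38). *Clec7a*, *Mx1* and *Aldoa* could not be matched to 1 gene and were left out, and a few list members are not reported here. Counts of near-identical copies, such as *Bcl2a1a*, *Bcl2a1b* and *Bcl2a1d*, *Ear1* and *Ear2*, and the *H2* genes, are uncertain.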

Additional observations from a re-analysis of the deposited data

Results flagged for a closer look

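The effect of the genotype differed between nonclassical and classical monocytes for 54 genes over all 411 cells, for 33 over the cells of the whole-cell libraries and for 9 in the core cells, by a cell type by genotype term in the quasi-likelihood test of edgeR with Benjamini-Hochberg adjustment. All 9 differences were below 0, that is, *Tubb3-/-* against WT was lower in the core cells than in classical monocytes. The log2 differences, core cells minus classical monocytes, were -5.05 for *S100a9*, -5.21 for *S100a8*, -2.61 for *G0s2*, -3.18 for *Plet1*, -3.11 for *Ear2*, -3.82 for *Chst11*, -4.23 for *Olr1*, -5.07 for *Fmo2* and -3.82 for *Retnlg*.

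*S100a9*, a neutrophil and classical monocyte gene, had 18.9 and 32.7 CPM in classical monocytes of WT mice and 564 and 1489 CPM in those of *Tubb3-/-* mice. In the core cells it had 641 and 929 CPM in WT and 287 and 1975 CPM in *Tubb3-/-* mice, and 93.5% of its core UMIs lay in 5 cells. The summed neutrophil markers of the core cells ranged from 554 to 3787 CPM. Of the 118 classical monocytes, 6 (5.08%) carried at least 3 neutrophil markers, against 5.28% of the core cells. Another limit is that 2 of the 118 carried at least 3 alveolar macrophage markers, since those cells were left out of the core cells only. The part of such cells in these differences was not tested. The classical monocytes numbered 35 and 29 cells in WT and 15 and 39 in *Tubb3-/-* mice.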

How the results depend on the processing

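Of the number called between the genotypes over all 411 cells (213), RLE size factors gave 215, DESeq2 149, removal of Scrublet doublets 190.0 and a mitochondrial limit of 10% 211. No filter on low counts gave 520, and leaving out each mouse 229 to 516. The whole-cell libraries alone gave 5, at least 3 of the 5 markers 5, leaving out cells with alveolar macrophage markers 129, and the core cells 0. In the core cells RLE size factors gave 0, DESeq2 3, no filter 135, and leaving out each mouse 91, 71, 140 and 173. The replicate block gave 343 over all cells and 22 in the core cells. The labels do not pair the mice by number, although the numbers coincided with Y-linked transcripts or *Xist*, and with 2 pairs the deviations of same-numbered mice correlated at 0.0903 over all cells and 0.235 in the core cells. The count of genes whose effect differed from classical monocytes (54) was 90 without the filter, 42 to 157 without each mouse, 33 in the whole-cell libraries, 19 without cells with alveolar macrophage markers and 9 in the core cells.

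Leaving out each mouse moved the difference in share from -1.73 to 0.249 percentage points of all cells (0.249 without WT 2) and from -2.75 to 0.866 of *Ptprc*-positive cells (0.866 without WT 2 and 0.209 without *Tubb3-/-* 1). For the share of monocytes the range was -3.16 to 9.91 (-3.16 without WT 1 and -1.56 without *Tubb3-/-* 1). Among the 41 genes named between the genotypes, 5 of those called over all 411 cells changed sign without cells with alveolar macrophage markers. Over both libraries and in the core cells, these were *Krt19* (0.58 and 0.67), *Bckdhb* (0.45 and 0.57), *Cd164* (0.67 and 0.68), *Spp1* (-0.163 and -0.0608) and *Gm42418* (0.0202 and 0.0447). *Chil3*, *Mertk*, *Atp6v0d2* and *Spred2*, not called over all 411 cells, also changed sign in the core cells. Their log2 fold changes were -0.19, -0.31, -0.21 and 0.03 over all cells and 1.87, 2.61, 2.20 and -1.24 in the core cells. The cause of the changes in counts and signs was not tested. A fit without 1 mouse leaves a lone mouse in a genotype, which is assumed to vary like the other 2.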
